A study of Mus musculus with 246 samples.

Results

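The dorsomedial thalamus (DMT) was compared between mice taken after a social interaction and mice taken without one, using every DMT library of the series, 41 of 246. The libraries were chosen by the region, the interaction and the condition in their labels, and no measured value was used. SocialInteraction was given to 20 of these mice, which met an unfamiliar conspecific for 10 min before the brain was collected, and 21 mice had NoInteraction. All were adult male mice of the outbred CD1 stock, and each library is 1 punch sample (both hemispheres pooled) of 1 mouse, so replicates are separate animals. Ctrl_Vehicle mice were reared normally by dams given vehicle (7 mice with NoInteraction and 6 with SocialInteraction). ELA_Vehicle mice had early life adversity, in which limited bedding and nesting material was provided from postnatal day 2 to day 9, and their dams received vehicle (7 and 7 mice). ELA_SAFit2 mice had the same adversity, but their dams were injected once, on postnatal day 2, with SAFit2, an inhibitor of the stress-related co-chaperone FKBP51, in a slow-release gel (7 and 7 mice). The pups met the compound only through the dam's milk, and no group combined normal rearing with SAFit2. The interval between the interaction and brain collection, the time of day and the litter of each mouse are not given in the sources used here.

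Total counts lay between 23066810 and 38210938 per DMT library, with a median of 30427551 in the SocialInteraction and 29757332 in the NoInteraction libraries. In all 41 libraries the genes that vary between individual mice matched best to the other regions of the same mouse. The region itself was recognised by Slc17a6, the vesicular glutamate transporter of thalamic neurons, at a median of 732 CPM (counts per library scaled to a common size with TMM factors) in the DMT against 14.04 to 24.4 CPM in the other regions, and by the thalamic transcription factor Tcf7l2 at 463 CPM against 3.22 to 19.0 CPM. The punches differed in what else they held. The summed level of 12 choroid plexus markers ranged from 25.3 to 1207 CPM in the NoInteraction libraries (median 54.3) and from 27.3 to 1561 CPM in the SocialInteraction libraries (median 105.02), and 10 GABAergic neuron markers ranged from 32.0 to 234 CPM (median 82.0) and from 29.6 to 417 CPM (median 58.3). A list of 10 habenula markers ranged from 21.8 to 761 CPM and from 19.1 to 746 CPM. In bulk tissue, fewer cells of a type and less RNA per cell cannot be told apart.

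The dorsomedial thalamus, which includes the mediodorsal nucleus and its neighbours at the midline, exchanges excitatory connections with the prefrontal cortex and the amygdala and takes part in arousal and social behaviour. Brain tissue responds to an experience on several known routes. Neuronal firing and calcium entry induce immediate early genes such as Fos and Egr1 and, later, effectors such as Bdnf. Circulating glucocorticoids act through the nuclear receptor encoded by Nr3c1 on genes such as Fkbp5 and Tsc22d3. Unfolded proteins engage the heat shock factors in the cytosol and the unfolded protein response in the endoplasmic reticulum (ER).

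After social interaction, 187 genes were higher and 104 were lower in the DMT than without it, of 15847 protein-coding genes tested. The background rates were thus 1.18% of genes tested for a higher and 0.656% for a lower level, 1.84% in all. The test was edgeR's quasi-likelihood test with the condition as covariate, and a gene was called at a Benjamini-Hochberg adjusted p under 0.05 over all genes tested. Most changes were small. The median absolute log2 fold change of the 291 called genes was 0.14, 197 of them changed by less than 0.2 on the log2 scale, and 23 changed by more than 0.5, of which 20 were higher. No called gene separated the sets completely: the NoInteraction and SocialInteraction libraries overlapped for all 291. One animal weighed on the total. Without the SocialInteraction mouse numbered 57, of the Ctrl_Vehicle group, 192 genes were called and 190 of them were among the 291. The count of lower genes fell from 104 to 63 without mouse 57, to 67 without mouse 63 (ELA_SAFit2, SocialInteraction) and to 69 without 1 mouse of ELA_SAFit2 with NoInteraction.

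**Figure D1:**
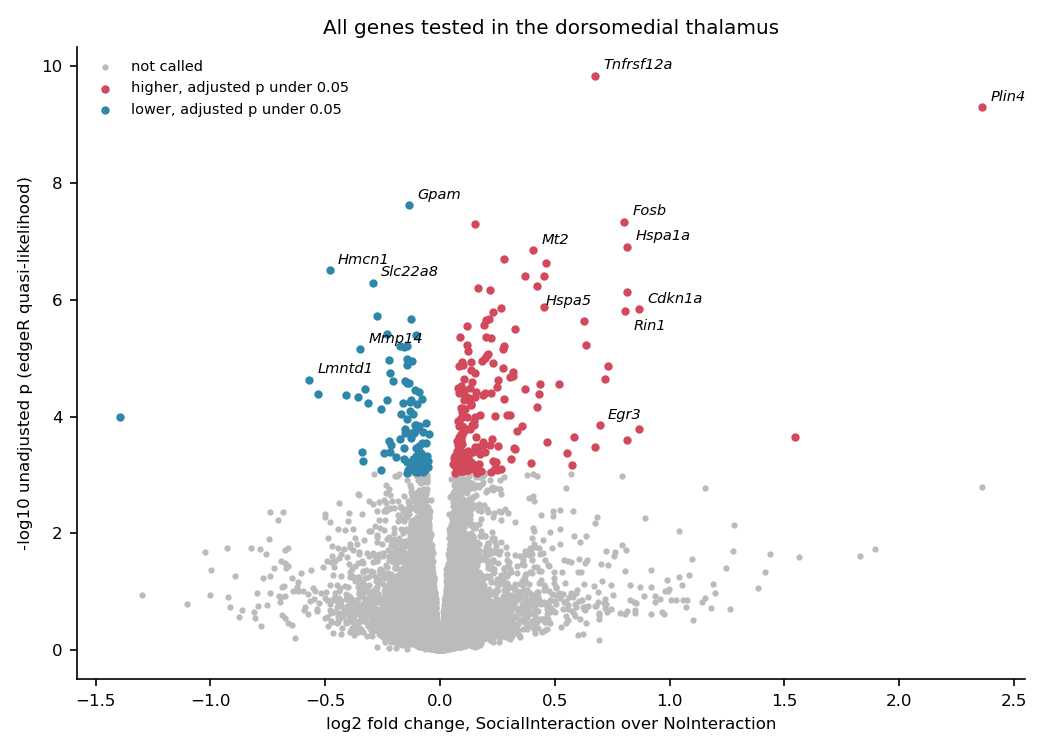
Each point is 1 of the 15847 genes tested, with the log2 fold change of SocialInteraction over NoInteraction in the DMT on the x axis and the unadjusted p of edgeR's quasi-likelihood test as -log10 on the y axis. The 187 genes called higher (red) reach further from 0 than the 104 called lower (blue), and Plin4 at 2.36 has the largest change among the called genes.

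The smallest p belonged to Tnfrsf12a, the receptor for the cytokine TWEAK. Its level ranged from 3.83 to 6.49 CPM without interaction (median 5.17) and from 4.96 to 11.4 CPM after it (median 8.02), and 17 of 20 SocialInteraction libraries lay above every NoInteraction library. The log2 fold change was 0.67 ± 0.08 (SE, n = 20 and 21; edgeR adjusted p = 2.33e-06), a level 59.5% higher. The largest change was that of Plin4, a coat protein of lipid droplets, which went from a range of 1.12 to 4.70 CPM (median 1.96) to one of 2.80 to 72.2 CPM (median 7.26). Again 17 of 20 libraries exceeded every control library, with a log2 fold change of 2.36 ± 0.29 (edgeR adjusted p = 4.01e-06). The value of 72.2 CPM came from mouse 57, and without it the fold change of Plin4 was 1.91 on the log2 scale (edgeR adjusted p = 6.56e-08).

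Other genes with small p-values act in metabolism, at the blood vessels or in signalling. Mfsd2a, which carries lipid-bound docosahexaenoic acid across the blood-brain barrier, rose from 13.95 to 19.3 CPM (median 15.6) to 16.3 to 44.5 CPM (median 20.8), by 0.46 ± 0.07 on the log2 scale (edgeR adjusted p = 0.000417). The endothelial surface antigen Ly6c1 rose from a median of 20.5 to 25.4 CPM (log2 fold change 0.28 ± 0.04, edgeR adjusted p = 0.000396), and all 20 SocialInteraction libraries lay above the NoInteraction median for both genes. Ak3, a mitochondrial adenylate kinase, rose by only 0.15 ± 0.02 on the log2 scale, yet 13 of 20 libraries exceeded the highest control of 63.9 CPM. Car7, a cytosolic carbonic anhydrase, went from a median of 11.3 to 16.2 CPM (0.45 ± 0.08). Rin1, a Ras effector that activates the endocytic GTPase Rab5, went from 4.54 to 7.08 CPM (0.81 ± 0.14), and its highest SocialInteraction library reached 18.7 CPM. Ccnf, the cyclin that recruits substrates to an SCF ubiquitin ligase, rose by 0.45 ± 0.08, the antioxidant enzyme Srxn1 by 0.17 ± 0.03 and the nuclear receptor Nr2f6 by 0.23 ± 0.04.

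Immediate early genes moved unevenly. Of 29 activity-dependent transcription factors tested, 5 rose and none fell, and the median log2 fold change of the list was 0.05 against 0.0021 over all genes tested. Fosb, a partner in the AP-1 complex, ranged from 1.43 to 3.97 CPM without interaction (median 2.16) and from 2.72 to 6.25 CPM after it (median 3.87). All 20 SocialInteraction libraries were above the control median and 9 were above the highest control, and the log2 fold change was 0.80 ± 0.12 (edgeR adjusted p = 0.000162). Egr3, a zinc finger factor induced by neuronal firing, went from 2.001 to 6.51 CPM (median 3.22) to 2.66 to 14.3 CPM (median 4.31), with a log2 fold change of 0.70 ± 0.17 (edgeR adjusted p = 0.0163). The others called were Fosl2 at 0.43 ± 0.09, Klf10 at 0.32 ± 0.07 and the cAMP-responsive modulator Crem at 0.22 ± 0.05.

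The best known activity markers did not pass the test. Fos ranged from 4.63 to 28.9 CPM without interaction (median 11.2) and from 7.58 to 29.2 CPM after it (median 16.2), so that the sets overlapped almost entirely, and its log2 fold change was 0.26 ± 0.21 (edgeR adjusted p = 0.678). Egr1 had medians of 38.99 and 48.8 CPM (0.15 ± 0.10), Junb of 5.72 and 6.83 CPM (0.22 ± 0.09), Npas4 of 9.53 and 12.5 CPM (0.20 ± 0.13) and Nr4a1 of 18.3 and 19.3 CPM (0.02 ± 0.06). Egr4 had a median of 0.553 CPM without interaction and 0.571 CPM after it. Egr2 was too low to be tested, with at most 0.193 CPM (without TMM factors) in any library.

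Of 36 activity-dependent effectors, 3 rose and none fell. Bdnf, the neurotrophin, ranged from 10.4 to 24.7 CPM without interaction (median 15.1) and from 12.5 to 29.5 CPM after it (median 21.1), a log2 fold change of 0.44 ± 0.09 (edgeR adjusted p = 0.00579). Vgf, a secreted neuropeptide precursor, went from a median of 145 to 179 CPM (0.24 ± 0.06), and 19 of 20 SocialInteraction libraries exceeded the control median. Cdkn1a, which encodes the cell cycle inhibitor p21 and stands on both this list and the glucocorticoid list, went from 4.004 to 6.93 CPM (median 5.64) to 6.66 to 40.5 CPM (median 8.23). In 18 of 20 libraries it was above every control, with a log2 fold change of 0.87 ± 0.15. The cytoskeletal plasticity gene Arc had medians of 12.96 and 14.4 CPM, and 0.23 ± 0.10 did not pass the test (edgeR adjusted p = 0.303). Among 21 feedback regulators of the MAP kinase pathway, none was called by edgeR or by DESeq2, although Spry2 (0.09 ± 0.03) and Dusp10 (0.22 ± 0.09) were among the 5 members with an unadjusted p under 0.05.

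**Figure D2:**
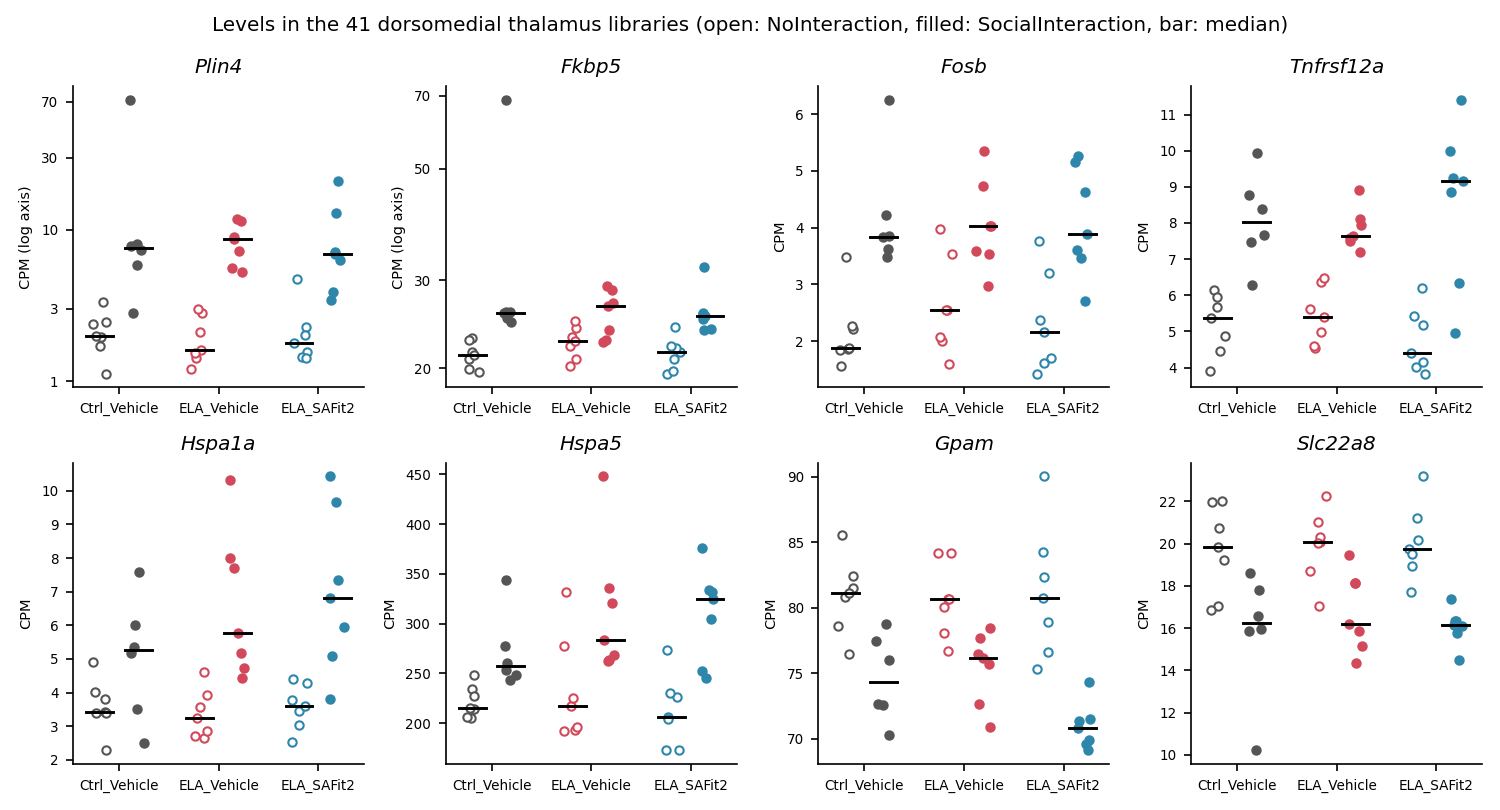
Levels (CPM, scaled with TMM factors) of 8 genes in each of the 41 DMT libraries, by condition, with open circles for NoInteraction, filled circles for SocialInteraction and bars at the group median; the axes of Plin4 and Fkbp5 are logarithmic and the linear axes do not start at 0. Plin4, Fkbp5, Fosb, Tnfrsf12a, Hspa1a and Hspa5 sit higher and Gpam and Slc22a8 lower after interaction in all 3 conditions, and 1 Ctrl_Vehicle mouse stands apart at 72.2 CPM for Plin4 and 68.7 CPM for Fkbp5.

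Genes induced by glucocorticoids formed a group with a high share of calls: 10 of 32 rose and none fell, with a median log2 fold change of 0.15. Fkbp5, the gene of the FKBP51 co-chaperone that SAFit2 inhibits, ranged from 19.5 to 24.8 CPM without interaction (median 21.5) and from 22.5 to 68.7 CPM after it (median 25.7). Its 20 SocialInteraction libraries all lay above the control median and 14 above the highest control, with a log2 fold change of 0.36 ± 0.09 (edgeR adjusted p = 0.0164). The metallothionein Mt2, which binds zinc, went from 53.3 to 72.6 CPM (median 62.6) to 60.7 to 132 CPM (median 82.5), or 0.40 ± 0.06 (edgeR adjusted p = 0.000324). Tsc22d3, which encodes the anti-inflammatory protein GILZ, rose by 0.32 ± 0.06, the hypoxia-inducible factor Hif3a by 0.87 ± 0.21, the sulfotransferase Sult1a1 by 0.72 ± 0.15 and the astrocyte connexin Gjb6 by 0.20 ± 0.04. Fam107a at 0.27 ± 0.07 and Mt1 at 0.22 ± 0.06 passed the threshold narrowly (edgeR adjusted p = 0.0459 and 0.0483). The receptor gene Nr3c1 itself was at a median of 193 CPM without and 186 CPM with interaction (log2 fold change -0.03 ± 0.05), and Sgk1, a kinase gene that glucocorticoids induce, was at 50.1 and 50.8 CPM.

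Mouse 57 had the highest level of all 41 DMT libraries for 9 of these 10 genes and the second highest for Mt1. In other regions of the same mouse it was highest for 10 of the 10 genes in ACC, BLA and vHipp and for 8 in mPFC. Without it, 8 of the 10 remained called, Fam107a and Mt1 did not, Nostrin was called as lower, and the list's median log2 fold change was 0.08 in place of 0.15. Fkbp5 then had a log2 fold change of 0.24 with a smaller adjusted p (edgeR, 0.000122), Cdkn1a one of 0.64, Hif3a one of 0.60 and Mt2 one of 0.35.

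Heat shock and protein folding genes rose together. Of 32 such genes tested, from the cytosol, the mitochondria and the endoplasmic reticulum, 18 were higher and none lower, with a median log2 fold change of 0.12, and 30 of the 32 had a fold change above 0. Hspa1a, an inducible HSP70, ranged from 2.29 to 4.92 CPM without interaction (median 3.46) and from 2.52 to 10.4 CPM after it (median 5.85), and 15 of 20 libraries exceeded every control (log2 fold change 0.81 ± 0.13, edgeR adjusted p = 0.000324). Its near-identical neighbour Hspa1b went from a median of 5.32 to 8.70 CPM (0.81 ± 0.14), and reads could have been split between the copies. The small chaperone Hspb1 rose from a median of 6.31 to 8.64 CPM (0.52 ± 0.11) and Cryab by 0.23 ± 0.06. Abundant members rose by less: Hsph1, a nucleotide exchange factor for HSP70, went from a median of 321 to 363 CPM (0.21 ± 0.04) and the J-domain co-chaperone Dnaja1 from 309 to 335 CPM (0.12 ± 0.02). The HSP90 co-chaperones Chordc1 (0.22 ± 0.04), Ahsa2 (0.18 ± 0.04), Ahsa1 (0.14 ± 0.03) and Stip1 (0.13 ± 0.03) were all called, as were Dnajb1 (0.16 ± 0.03), Dnaja4 (0.15 ± 0.03), Dnajb5 (0.14 ± 0.04), the constitutive Hspa8 (0.10 ± 0.03) and the mitochondrial pair Hspd1 (0.09 ± 0.02) and Hspe1 (0.15 ± 0.04). Of 5 cold-inducible genes, Cirbp, an RNA-binding protein induced by mild cold, fell from a median of 69.4 to 58.5 CPM (log2 fold change -0.20 ± 0.04, edgeR adjusted p = 0.0056), and Rbm3 was at 68.1 and 61.9 CPM (-0.11 ± 0.05, not called).

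A second list gathered folding and stress genes of the ER. No list was tested as a set, and the lists above were chosen with earlier results of these data known. These 37 genes were put together after the present values had been seen. Of them 15 were called higher and none lower, with a median log2 fold change of 0.08, and Hspa5 and Hsp90b1 are counted in both lists. Hspa5 encodes BiP, the main HSP70 of the ER lumen, and is a target gene of the unfolded protein response. Its level ranged from 173 to 332 CPM without interaction (median 215) and from 243 to 448 CPM after it (median 280). All 20 SocialInteraction libraries lay above the control median but only 5 above the highest control, with a log2 fold change of 0.42 ± 0.07 (edgeR adjusted p = 0.000658). The co-chaperone Sdf2l1 rose from a median of 4.36 to 6.11 CPM (0.64 ± 0.12), Derl3, which takes part in the export of misfolded proteins, by 0.58 ± 0.14, and the disulfide isomerases Pdia6, Pdia4 and Pdia3 by 0.33 ± 0.06, 0.29 ± 0.07 and 0.20 ± 0.04. The lectin chaperone Calr went from 310 to 371 CPM (0.27 ± 0.06), the HSP90 of the ER, Hsp90b1, from 314 to 364 CPM (0.20 ± 0.04), and the transcription factor Xbp1, which drives one arm of the response, from 43.8 to 53.6 CPM (0.28 ± 0.06). Manf (0.25 ± 0.05), Creld2 (0.30 ± 0.07), Dnajb11 (0.19 ± 0.04) and Dnajc3 (0.17 ± 0.04) were called in the same direction.

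Promoters of some folding genes that rose are shown because they hold known elements, letters that the comparison did not use. In RefSeq promoters of build GRCm38.p6 (a different build from that named for the count table, so no position was joined to it), the 250 bases before the start site were searched on both strands for the ER stress element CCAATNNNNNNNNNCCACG, where N is any base. It was present in 7 of the 13 called ER genes with a promoter in the table (Calr, Creld2, Derl3, Dnajc3, Hsp90b1, Hspa5 and Pdia6). Among all genes tested it was present in 22 of the 12304 with a promoter, or 0.18%. The ER list was gathered from known ER stress genes after their values were seen, so this share is no independent support. It was also present in Canx, Syvn1 and Ero1b of the same list, which were not called (edgeR adjusted p = 0.0778, 0.378 and 0.587). The heat shock element GAANNTTCNNGAA was found in 2 of the 16 matched heat shock genes called higher, Hspd1 and Hspe1. Among the matched genes tested it was found in 0.45%. These 2 genes share the stretch printed below, so they are not separate finds. The cAMP response element TGACGTCA, the CArG box and the glucocorticoid response element AGAACANNNTGTTC were found in no promoter of the called activity genes (4 of 8 matched) or glucocorticoid genes (10 of 10 matched), which says only that these letters are not in these windows. A match is a description of letters and not evidence of binding. The sequences below run 5′ to 3′ on the strand of the gene and end at the base before the start site, with capitals for the element.
Hspa5, chr2:34771840-34772089, plus strand: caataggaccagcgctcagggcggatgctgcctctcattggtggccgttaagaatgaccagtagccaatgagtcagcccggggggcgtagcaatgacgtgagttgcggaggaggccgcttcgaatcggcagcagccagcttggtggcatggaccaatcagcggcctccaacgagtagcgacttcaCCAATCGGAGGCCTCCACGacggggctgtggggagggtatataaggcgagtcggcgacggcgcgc
Pdia6, chr12:17266339-17266588, plus strand: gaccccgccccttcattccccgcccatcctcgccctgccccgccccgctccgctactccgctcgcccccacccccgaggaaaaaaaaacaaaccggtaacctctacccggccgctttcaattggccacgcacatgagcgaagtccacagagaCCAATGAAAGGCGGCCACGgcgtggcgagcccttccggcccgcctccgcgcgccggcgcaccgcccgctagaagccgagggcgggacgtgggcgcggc
Hsp90b1, chr10:86705445-86705694, minus strand: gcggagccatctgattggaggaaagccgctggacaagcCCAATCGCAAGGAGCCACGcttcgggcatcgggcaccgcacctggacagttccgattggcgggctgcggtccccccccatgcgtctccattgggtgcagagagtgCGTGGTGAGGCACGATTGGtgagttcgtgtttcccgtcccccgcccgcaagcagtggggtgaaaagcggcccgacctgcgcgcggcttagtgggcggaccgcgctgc
Calr, chr8:84846932-84847181, minus strand: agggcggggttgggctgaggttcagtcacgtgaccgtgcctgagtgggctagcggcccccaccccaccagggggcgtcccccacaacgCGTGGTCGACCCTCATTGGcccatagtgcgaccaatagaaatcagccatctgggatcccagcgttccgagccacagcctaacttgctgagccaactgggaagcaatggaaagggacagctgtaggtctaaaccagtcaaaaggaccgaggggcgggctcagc
In Hsp90b1 the element occurs on both strands, and in Calr it reads on the opposite strand. Hspd1 and Hspe1 start head to head, and the 215 bases between the start site of Hspe1 and the nearer of the 2 listed for Hspd1, written on the strand of Hspe1, hold a pair of overlapping heat shock elements.
Hspd1-Hspe1, chr1:55087933-55088147, plus strand: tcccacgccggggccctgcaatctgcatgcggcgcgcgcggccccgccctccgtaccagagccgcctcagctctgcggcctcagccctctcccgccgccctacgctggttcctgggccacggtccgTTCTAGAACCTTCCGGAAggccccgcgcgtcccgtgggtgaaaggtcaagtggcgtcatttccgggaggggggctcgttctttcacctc

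Enzymes of amino acid metabolism and RNA-binding proteins were grouped in the same way, after their values had been seen. Of 35 amino acid enzymes, 5 were higher and none lower. Cth, which makes cysteine from cystathionine, ranged from 2.10 to 3.49 CPM without interaction (median 2.66) and from 2.86 to 4.62 CPM after it (median 3.505), so that every SocialInteraction library lay above the control median (0.37 ± 0.06). Glul, the glutamine synthetase of astrocytes, went from a median of 922 to 1046 CPM (0.20 ± 0.04), and Gpt2, Bcat2 and Dbt, which handle alanine and branched-chain amino acids, rose by 0.19 ± 0.04, 0.21 ± 0.04 and 0.19 ± 0.04. Of 37 splicing factors and RNA-binding proteins, 9 were higher, among them the m6A reader Ythdc1 (0.10 ± 0.02), Hnrnpc (0.11 ± 0.02), Tra2a (0.15 ± 0.03) and Srsf3 (0.08 ± 0.02). The 4 that were lower were Rsrp1 (-0.14 ± 0.03), Hnrnpdl (-0.10 ± 0.02), Ewsr1 (-0.05 ± 0.01) and Cirbp.

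The genes that fell changed by little. Gpam, the mitochondrial acyltransferase that starts glycerolipid synthesis, ranged from 75.3 to 90.1 CPM without interaction (median 80.7) and from 69.1 to 78.8 CPM after it (median 72.7). All 20 SocialInteraction libraries lay below the control median and 12 below the lowest control, with a log2 fold change of -0.14 ± 0.02 (edgeR adjusted p = 0.000127). Slc22a8, an organic anion transporter of brain barriers, went from 16.8 to 23.2 CPM (median 20.05) to 10.2 to 19.4 CPM (median 16.2), a change of -0.29 ± 0.05 with 14 libraries below every control. The matrix gene Hmcn1 fell from a median of 8.07 to 6.004 CPM (-0.48 ± 0.08), the membrane metalloprotease Mmp14 from 25.7 to 20.7 CPM (-0.35 ± 0.07), the actin nucleator Fmn1 from 18.4 to 15.4 CPM (-0.28 ± 0.05) and the transcription factor Rfx4 from 21.5 to 19.3 CPM (-0.23 ± 0.04). Rfx4 lay below the lowest control of 20.1 CPM in 16 of 20 libraries. Lmntd1 had the largest fall among the 20 genes with the smallest p-values, from a median of 1.24 to 0.723 CPM (-0.57 ± 0.12). The other 13 of these 20 fell by 0.11 to 0.22 on the log2 scale, among them the Mediator subunit Med12 (-0.17 ± 0.03), the transcriptional repressor Bach2 (-0.22 ± 0.04) and the smooth muscle protein Smtn (-0.22 ± 0.05).

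Receptors and marker genes mostly did not pass the test. None of 35 glutamate and GABA receptor subunits was called by edgeR or DESeq2, and the 1 member with an unadjusted p under 0.05, Gabra2, was at a median of 102.7 and 110 CPM (0.10 ± 0.04, edgeR adjusted p = 0.133). None of 46 neuromodulator receptors was called by either tool (2 had an unadjusted p under 0.05). The oxytocin receptor Oxtr, with the smallest p of that list, was at a median of 6.01 CPM without and 7.82 CPM with interaction, and its log2 fold change of 0.28 ± 0.09 missed the threshold (edgeR adjusted p = 0.112). Of 23 clock genes, Per2 alone was called (0.31 ± 0.08, edgeR adjusted p = 0.0372), and it was not called without mouse 57 or without the 5 libraries that stood apart by their marker levels, described below. None of 18 interferon-stimulated genes (1 with an unadjusted p under 0.05) or 13 mitochondrially encoded genes (2 with an unadjusted p under 0.05) was called by either tool.

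No thalamic, habenular, GABAergic or choroid plexus marker was called by edgeR, but the lists' medians differed. The 12 choroid plexus markers had a median log2 fold change of 0.94 and the 10 GABAergic markers one of 0.67, with summed levels that overlapped between the sets over the ranges given above, and none of these markers was at 0 in every library. All 12 choroid plexus markers also had a higher median after interaction. Of the 10 GABAergic markers, 9 had a lower median after interaction despite a fitted fold change above 0, and Gad1, which makes GABA, reached its highest levels in 3 SocialInteraction mice, at 134 to 167 CPM. The 18 thalamic markers had a median of 0.01. Among the other cell types, Gjb6 of 11 astrocyte markers and Ly6c1 of 14 endothelial and mural markers rose. Ly6c1 went against most of its list, which had a median log2 fold change of -0.08 and 2 of 14 members above 0. Opalin, an oligodendrocyte membrane protein (-0.34 ± 0.09, edgeR adjusted p = 0.0397), and Tie1, an endothelial receptor kinase (-0.17 ± 0.04, edgeR adjusted p = 0.0226), fell. With the choroid plexus, GABAergic and habenula levels as covariates, 397 genes were called, and 268 of the 291 were among them. Without 5 libraries, the 3 with the highest choroid plexus and the 2 with the lowest thalamic levels, 338 genes were called, 251 of them among the 291.

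**Figure D3:**
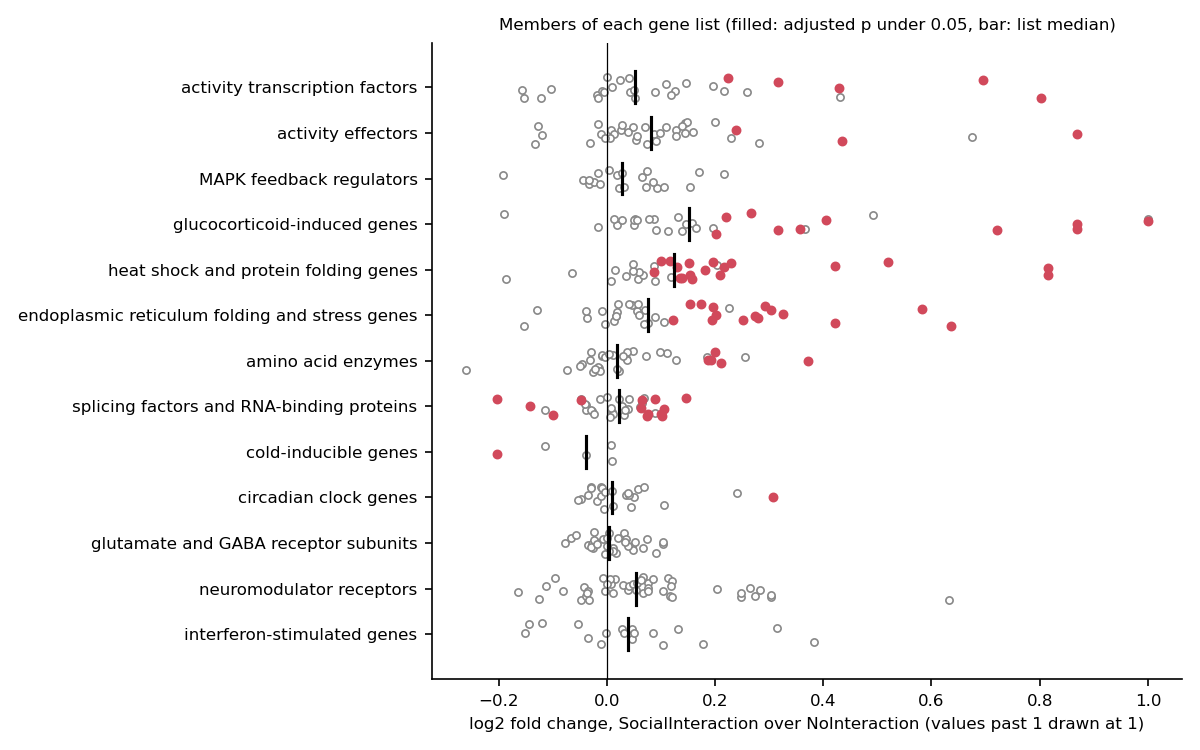
Each point is 1 tested gene of a list, placed by its log2 fold change of SocialInteraction over NoInteraction in the DMT (values past 1 are drawn at 1), filled where the edgeR adjusted p was under 0.05, with a bar at the list's median. The heat shock list (18 of 32) and the ER list (15 of 37) hold the most filled points, the receptor lists hold none, and the ER, amino acid and splicing lists were chosen after their values were seen.

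The response was next read within each condition. All 187 genes called higher over the pooled conditions had a fold change above 0 in each of Ctrl_Vehicle, ELA_Vehicle and ELA_SAFit2, and all 104 called lower had one below 0 in each; these are the same libraries that gave the calls. Within a condition, with 6 or 7 mice per set, few genes passed the test. Only Plin4 was called in Ctrl_Vehicle (0.00631% of genes tested; log2 fold change 3.01 ± 0.51, edgeR adjusted p = 0.0123). That call rested on mouse 57, at 72.2 CPM beside 2.80 to 8.10 CPM in the other 5 SocialInteraction mice and 1.12 to 3.35 CPM in the controls. Without mouse 57 the estimate was 1.57 ± 0.35 (edgeR adjusted p = 0.699), and edgeR called 0 genes in Ctrl_Vehicle (459 had an unadjusted p under 0.05). In ELA_Vehicle edgeR called 0 genes (0%) and 925 had an unadjusted p under 0.05. In ELA_SAFit2 edgeR called 6 (0.0379%), which were Tnfrsf12a, Gpam, Bmpr1b, Snx7, Mgarp and Smg6.

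Whether the response itself differed between conditions was tested directly. The test for any difference among the 3 conditions called 0 genes with edgeR (330 had an unadjusted p under 0.05) and 2 with DESeq2, Cwc22 and Bfsp2. Of the 291 genes of the pooled response, 4 had an unadjusted p under 0.05 for such a difference. Single estimates varied: Hspa1b had a log2 fold change of 0.38 in Ctrl_Vehicle, 0.93 in ELA_Vehicle and 1.09 in ELA_SAFit2, and Fkbp5 had 0.62, 0.19 and 0.28. Plin4 had 3.01, 2.09 and 2.01. Without mouse 57 the Ctrl_Vehicle estimates were 0.21 for Hspa1b, 0.26 for Fkbp5 and 1.57 for Plin4. For Gpam the estimates were -0.12, -0.10 and -0.19. The responses of ELA_Vehicle and Ctrl_Vehicle differed for 0 genes with edgeR (354 had an unadjusted p under 0.05). Those of ELA_SAFit2 and ELA_Vehicle differed for 6 genes (0.0379%), Cwc22 and 5 predicted genes of similar pattern, whose levels were high in the same 4 mice. Cwc22, a splicing factor gene, was at 487 to 507 CPM in 2 ELA_Vehicle NoInteraction and 2 ELA_SAFit2 SocialInteraction mice. In the other 37 mice it was at 18.3 to 22.6 CPM. In every other region the same 4 mice were among the 4 or 5 libraries with the highest Cwc22 level. The high level thus went with these animals, which fell in opposite sets of the 2 conditions.

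**Figure D4:**
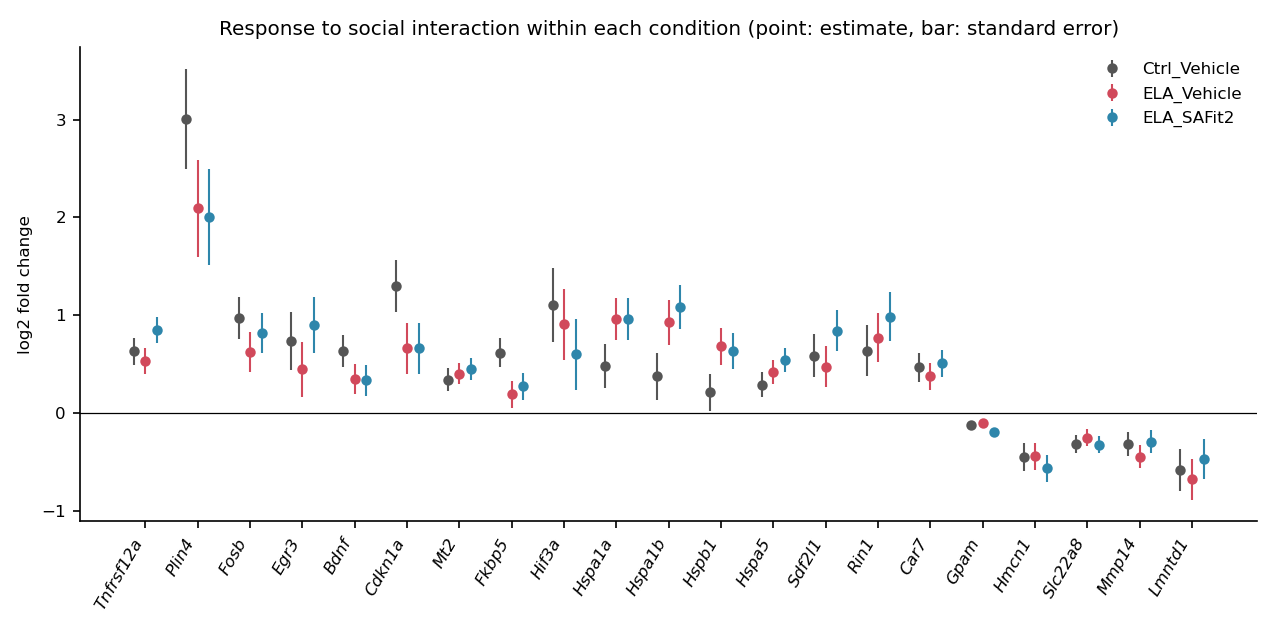
Log2 fold change of SocialInteraction over NoInteraction within Ctrl_Vehicle, ELA_Vehicle and ELA_SAFit2 (points) with standard errors (bars) for 21 genes on the x axis. Every estimate has the same sign in the 3 conditions, and the widest bars belong to Plin4, with 3.01 in Ctrl_Vehicle (1.57 without mouse 57) against 2.09 and 2.01.

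The same mice also gave libraries of the medial prefrontal cortex (mPFC), the anterior cingulate cortex (ACC), the basolateral amygdala (BLA) and the ventral hippocampus (vHipp). Fitted in the same way, the mPFC had 7.6% of its tested genes called, the ACC 4.26%, the BLA 1.61% and the vHipp 1.41%, beside 1.84% for the DMT. The heat shock list had 17, 13, 9 and 10 higher members in these regions, in the same order, beside 18 in the DMT. The glucocorticoid list had 8, 8, 5 and 5 beside 10. The ER list had 20, 17, 10 and 13 beside 15, so that the mPFC and ACC had more of its members called than the DMT. The activity effectors stood differently, with 14, 14, 4 and 2 of 36 higher beside 3. In the nucleus accumbens (Nacc) edgeR called 0 of 15881 genes (0%), and so no list member, while 387 genes had an unadjusted p under 0.05. Of the 41 Nacc libraries, 12 matched another mouse best. These counts share mice and are given side by side without a test.

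A difference between regions was tested gene by gene, on the within-mouse difference of log2 CPM between the DMT and the mean of the 4 other regions (limma). Of 15203 genes, 17 passed (0.112%). The log2 fold change was higher in the DMT than in the mean of the other regions for 8 of them. Hspa1b rose by 0.81 in the DMT and by 0.19 to 0.30 on the log2 scale in the other regions, where it was not called, and the response differed by 0.50 ± 0.06 (limma adjusted p = 3.48e-05). For Hspa1a the difference was 0.51 ± 0.09 (limma adjusted p = 0.00215), for Cdkn1a 0.43 ± 0.09, for Car7 0.40 ± 0.08, for Tnfrsf12a 0.39 ± 0.08, for Vsig10l 0.36 ± 0.07, for Il13ra1 0.26 ± 0.06 and for Dlk2, a Delta-like protein, 0.21 ± 0.04. Car7 rose by 0.45 in the DMT and had estimates of 0.04 to 0.10 elsewhere. Il13ra1 was not called in the DMT (0.13 ± 0.05, edgeR adjusted p = 0.229). Its estimates in the 4 other regions were below 0, at -0.22 to -0.10, and its difference joins opposite signs. These log2 responses start from unequal levels. Without interaction, the DMT minus the mean of the other regions was -1.27 for Hspa1b, -1.13 for Hspa1a and -0.87 for Cdkn1a. It was -0.52 for Vsig10l, -0.44 for Dlk2, -0.25 for Car7, 0.59 for Il13ra1 and 1.30 for Tnfrsf12a. Tnfrsf12a was also called in the mPFC (0.54 ± 0.08) and the ACC (0.33 ± 0.08).

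The log2 fold change was lower in the DMT than in the mean of the other regions for 9 genes. Nptx2, a secreted pentraxin that clusters AMPA receptors at synapses and is induced by activity, ranged from 55.5 to 78.1 CPM without interaction in the DMT (median 64.6) and from 56.3 to 77.4 CPM after it (median 65.8). Its log2 fold change was 0.03 ± 0.04 in the DMT beside 0.88 ± 0.08 (mPFC), 0.57 ± 0.07 (ACC) and 0.56 ± 0.08 (BLA), and 0.24 ± 0.09 in the vHipp was not called (edgeR adjusted p = 0.209). The response differed by -0.53 ± 0.07 (limma adjusted p = 4.78e-05). The kinase gene Dapk2 was at 0.05 ± 0.06 in the DMT against 1.17 ± 0.13 in the mPFC and 0.68 ± 0.10 in the ACC (difference -0.51 ± 0.10), while 0.10 ± 0.16 in the BLA and 0.41 ± 0.17 in the vHipp were not called (edgeR adjusted p = 0.869 and 0.268). The atypical MAP kinase gene Mapk6 was at -0.06 ± 0.02 in the DMT against 0.31 ± 0.05 in the mPFC and 0.23 ± 0.03 in the ACC (difference -0.20 ± 0.03), and 0.05 ± 0.04 in the BLA and -0.01 ± 0.04 in the vHipp were not called (edgeR adjusted p = 0.692 and 0.953). Rfx4 fell in the DMT and was not called in the others (difference -0.23 ± 0.04, limma adjusted p = 0.000718). Ptk2, Ifrd1, Ina, Exoc6b and Cmc2 had differences of -0.11 to -0.19. Plin4, Fosb, Hspa5 and Fkbp5 did not pass this test (limma adjusted p = 0.339, 0.718, 0.985 and 0.975). Without the pairing of regions within mice, edgeR called 7 genes.

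**Figure D5:**
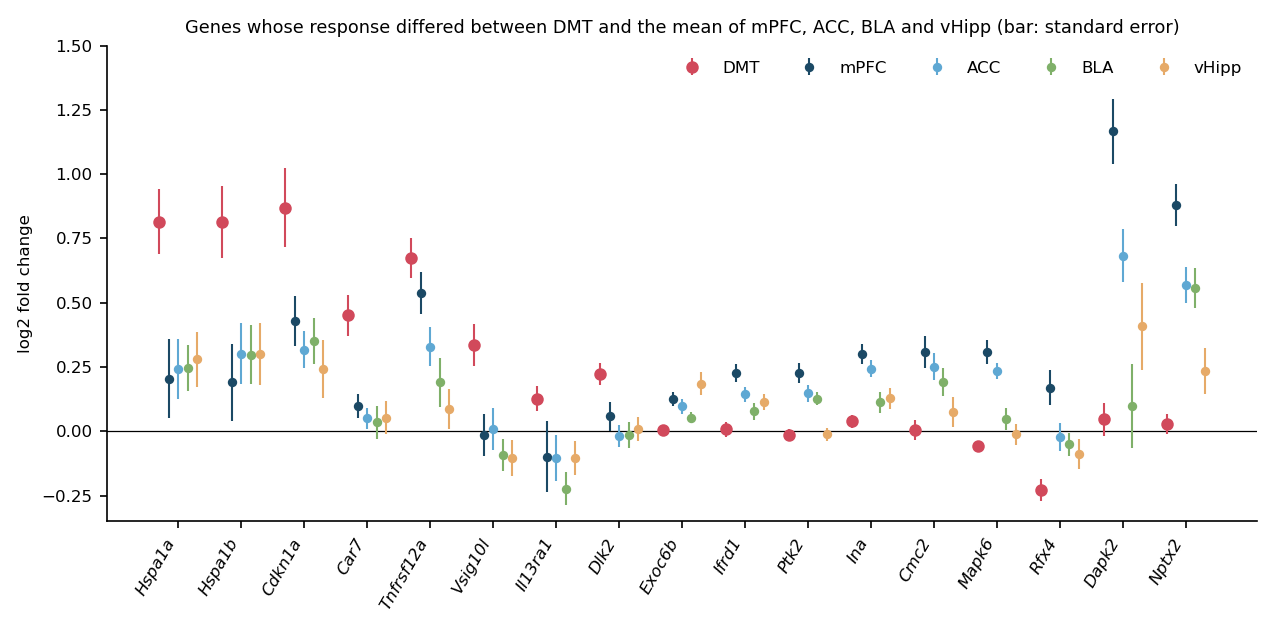
Log2 fold change of SocialInteraction over NoInteraction with its standard error in the DMT (large red points) and 4 other regions for the 17 genes, on the x axis, whose response differed between the DMT and the mean of the others. Hspa1a and Hspa1b reach 0.81 in the DMT against at most 0.30 elsewhere, and Nptx2 lies at 0.03 in the DMT against 0.88 in the mPFC.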

How the data were processed

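The authors sequenced poly-A RNA of micropunched brain regions with a stranded kit and deposited 1 table of estimated counts per gene, of which 12.12% of values were not whole. The submitters' processing notes name STAR, DESeq2 and the builds GRCm39 and mm39, the table's name points to salmon, and versions are not given in the sources used here. Estimated counts were rounded to whole numbers. Of 56691 gene IDs, 52073 were matched to GENCODE M21 for their gene type and 978 more by RefSeq symbol, and 3640 had none. Protein-coding genes with a count in at least 6 DMT libraries and a summed count of at least 100 were tested.

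The 41 DMT libraries were grouped by their labels and fitted with edgeR 4.0.16 (TMM, quasi-likelihood test, condition as covariate) in R 4.3.3, and p-values were adjusted with the Benjamini-Hochberg method over all genes tested. Fold changes are on the log2 scale with standard errors, and levels are CPM. Differences of the response between conditions were tested as interaction terms. For the comparison of regions, the log2 CPM (prior count 2) of the DMT minus the mean of the mPFC, ACC, BLA and vHipp of the same mouse was tested with limma 3.58.1; the pairing comes from the mouse numbers in the labels, and deviations from the group means correlated between the DMT and the other regions with a median r of 0.354 (over 0.1 in 40 of 41 mice, lowest -0.083). The Nacc was left out of this comparison because 12 of its 41 libraries matched another mouse.

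Members and gene lists were chosen with earlier results of these data known, and the ER, amino acid and splicing lists after the present values were seen. Named genes are the 20 smallest p-values in each direction, the called members of each list (at most 12, or the 3 smallest p-values), a set of activity and glucocorticoid genes, the smallest p-values for differences between conditions and regions, and the called and first genes of each marker list. Other genes of a list given with values were named after their values were seen. In simulated counts with 200 changed genes, drawn from those above a low CPM floor, the pooled test recovered 70% of changes of 0.25 (log2, 15799 genes) and 93.5% of 0.5 (15802 genes). Smaller changes, like most of those called, were not simulated. The alternatives were DESeq2 1.42.0, other size factors, filters, gene types, covariates, conditions and leaving out each library. Figures and promoter searches used Python 3.11.15.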

Additional observations from a re-analysis of the deposited data

Results flagged for a closer look

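Single libraries stood apart from the rest of their group in 23 of 198 groups of values examined (32 genes and the library totals). Chance gives about 1 in 20 for unrelated values, but these groups reuse the same mice, so that rate is only a rough guide. Mouse 57 (Ctrl_Vehicle, SocialInteraction) was far above its group for Plin4 at 72.24 CPM, Fkbp5 at 68.75 CPM, Mt2 at 132.5 CPM, Mfsd2a at 44.51 CPM, Fosb at 6.253 CPM and Cth at 4.622 CPM, and far below it for Slc22a8 at 10.21 CPM. Mouse 63 (ELA_SAFit2, SocialInteraction) was high for Mfsd2a at 27.39 CPM and Fkbp5 at 31.92 CPM. In the same group, mouse 23 was high for the activity genes Egr3 at 14.34 CPM, Egr4 at 5.682 CPM and Arc at 30.76 CPM, and mouse 31 was low for Fmn1 at 11.15 CPM. The library of mouse 23 also had the highest summed choroid plexus level, 1561 CPM, and a GABAergic level of 376 CPM. A link to the activity genes was not tested. Mouse 41 (Ctrl_Vehicle, NoInteraction) was high for Fosb at 3.476 CPM, Junb at 8.983 CPM and Npas4 at 18.55 CPM.

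Mouse 15 (ELA_SAFit2, NoInteraction) was high for Plin4 at 4.701 CPM and low for Sgk1 at 35.29 CPM and Nr3c1 at 123.6 CPM. The other values of this kind lay above their groups: 84.61 CPM for Sgk1 in mouse 59 (ELA_Vehicle, SocialInteraction), 1.035 CPM for Egr4 in mouse 89 (Ctrl_Vehicle, SocialInteraction) and 20.34 CPM for Fbxl4 in mouse 81 (Ctrl_Vehicle, NoInteraction). The total of mouse 5 (ELA_Vehicle, NoInteraction) was low at 23294358 counts.

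The response differed between the DMT and the mean of the other regions (limma, within mice, log2 scale) by 0.501 for Hspa1b, 0.507 for Hspa1a, 0.433 for Cdkn1a, 0.396 for Car7, 0.386 for Tnfrsf12a, 0.365 for Vsig10l, 0.259 for Il13ra1 and 0.214 for Dlk2. It differed by -0.527 for Nptx2, -0.514 for Dapk2, -0.231 for Rfx4, -0.201 for Mapk6, -0.194 for Cmc2, -0.155 for Ina, -0.135 for Ptk2, -0.13 for Ifrd1 and -0.111 for Exoc6b.

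The response of ELA_SAFit2 differed from that of ELA_Vehicle (edgeR, fitted log2 difference) by 5.923 for Cwc22, 12.87 for Gm13698, 18.1 for Gm13694, 13.82 for Gm13691, 16.58 for Gm13693 and 11.3 for Gm13696. The 5 predicted genes were at 0 in many libraries, so that their fitted differences depend on the prior count and are no bounds, and the split of reads between these near-identical copies is uncertain. The high levels came from 2 ELA_Vehicle mice with NoInteraction and 2 ELA_SAFit2 mice with SocialInteraction. These 4 mice were also among the 4 or 5 libraries with the highest Cwc22 level in every other region.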

How the results depend on the processing

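All 291 genes kept their direction in every setting in which they were tested (283 of them under the stricter filter). DESeq2 called 422 genes, 284 of them among the 291, with 159 lower. The count moved most when a condition was left out: 0.65% of genes tested (70 higher, 33 lower) without Ctrl_Vehicle, 0.41% (43 and 22) without ELA_Vehicle and 0.158% (20 and 5) without ELA_SAFit2, against 1.84% with all libraries, fits that hold fewer mice. Leaving out each library in turn gave 192 to 352 called genes (1.21% to 2.22%), 129 to 213 higher and 63 to 139 lower. Fam107a was no longer called in 27 of these 41 fits, Mt1 in 29, Opalin in 20, Srsf6 in 18, Per2 in 17 and Snw1 in 8. Windows of mouse numbers gave 258 genes (247 shared) and library order 315 (289 shared). The alternatives with marker levels as covariates and without the 5 libraries were chosen after seeing the data; the clock list then had 0 higher without the 5 libraries (edgeR), and the ER list had 1 lower gene with DESeq2 and 1 with the marker covariates. Within Ctrl_Vehicle, leaving out mouse 57 (also chosen after seeing the data) left 0 called genes in place of 1. The difference between conditions had 2 genes with DESeq2. For the regions, the fit with no replicate block, which ignores the pairing by mouse, called 7 genes (5 higher, 2 lower), and 4 of the 17 named genes passed in it. With the Nacc added, 12 genes were called, 7 higher and 5 lower, and 6 of the 17 (Ptk2, Dapk2, Car7, Il13ra1, Ifrd1 and Cmc2) no longer passed. The cause of these shifts was not tested. Depth limits low genes such as Egr2, at most 0.193 CPM.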

Other observations

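Beyond protein-coding genes, 5057 of the 20904 genes of all types tested together were of another type or untyped, and 10 of them were called by edgeR, 5 higher and 5 lower after social interaction. The antisense transcript 9630013A20Rik rose by 0.81 on the log2 scale (edgeR adjusted p = 5.66e-05) and the long non-coding RNA Mir670hg by 0.32 (edgeR adjusted p = 0.000514), while 4930517E14Rik fell by 0.38 (edgeR adjusted p = 0.00595).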
